A study of Mus musculus with 12 samples.

Results

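Cxcl9 and Cxcl10 encode small secreted chemokines that act on the receptor CXCR3, and both were followed here by name, as 2 of the 24421 gene symbols counted in myeloid cells of regenerating mouse muscle. Both passed the filter on low counts, which kept 12981 genes. The cells were sorted as live CD45+ CD11B+ cells lacking LY6G and SIGLECF, labelled macrophages, taken from tibialis anterior muscle that was recovering, at day 5, from notexin, a muscle-damaging venom component. The mice were Ifngr1 wt/null or Ifngr1 null/null and were injected daily with a TNF-neutralizing antibody or with an isotype control antibody. This gives 4 groups of 3 libraries each, 12 libraries in all, named below by genotype and then antibody (isotype or anti-TNF). Every mouse carried at least 1 null allele, so the wt/null group is a group with 1 working copy of Ifngr1 and not a wild type. Whether each library came from a separate mouse is not stated in the labels, and p-values measure the spread between libraries only.

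CXCL9 and CXCL10 are made by monocytes, macrophages, dendritic cells and stromal cells in inflamed tissue and draw activated T cells and NK cells that carry CXCR3. Interferon gamma (IFN-γ) binds a receptor made of IFNGR1 and IFNGR2, which signals through the kinases JAK1 and JAK2 to target genes with GAS sites and to the gene of the transcription factor IRF1. Cxcl9 is a classical target of IFN-γ, whereas Cxcl10 can also be induced by type I interferon, through ISRE sites, and by NF-κB downstream of TNF and other signals. The question asked of these libraries was how closely each gene followed the presence of Ifngr1, and whether neutralizing TNF changed either.

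Both genes lie on chromosome 5 on the minus strand (build GRCm38), Cxcl9 from 92321331 to 92328079 and Cxcl10 from 92346638 to 92348889, with 18.6 kb between the gene bodies. The 250 bases before each RefSeq start site are shown here because the kinds of regulatory letters they hold differ, with capitals marking matches on either strand to an ISRE pattern (GAAA, any 2 bases, GAAA) or to NF-κB patterns. The longer NF-κB pattern is GGG, any 5 bases, CC, and the shorter, GGGANTTCC, was added after these sequences had been read. Both windows are on the minus strand, chr5:92328080-92328329 for Cxcl9 and chr5:92348890-92349139 for Cxcl10.
Cxcl9: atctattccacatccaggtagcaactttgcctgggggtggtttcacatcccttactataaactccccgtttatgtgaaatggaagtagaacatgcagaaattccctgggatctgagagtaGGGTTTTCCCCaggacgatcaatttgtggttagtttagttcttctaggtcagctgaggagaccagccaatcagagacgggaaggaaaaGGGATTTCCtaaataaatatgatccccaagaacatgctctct
Cxcl10: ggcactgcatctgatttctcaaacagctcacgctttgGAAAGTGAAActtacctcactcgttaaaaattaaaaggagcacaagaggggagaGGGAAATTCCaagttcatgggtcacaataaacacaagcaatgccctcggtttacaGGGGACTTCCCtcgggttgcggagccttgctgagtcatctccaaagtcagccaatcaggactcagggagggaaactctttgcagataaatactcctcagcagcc
The Cxcl10 window held 1 ISRE match, GAAAGTGAAA, from 213 to 204 bases before the start, and the Cxcl9 window held 0. Among the 32851 promoter windows of the same length in the RefSeq table, 2.98% held this pattern on either strand. Matches to the longer NF-κB pattern were present in both windows, in Cxcl10 as GGGAAATTCC from 159 to 150 bases and as GGGACTTCCC from 103 to 94 bases before the start, with a further match shifted by a base. In Cxcl9 the match was GGGTTTTCCC from 130 to 121 bases before the start, again with an overlapping match on the opposite strand. This pattern occurred in 45.8% of all windows, and the shorter GGGANTTCC in 1.43%. The shorter pattern matched once in each gene, as GGGATTTCC from 42 to 34 bases before the Cxcl9 start and as GGGACTTCC, within the longer match, in Cxcl10. The GAS pattern TTCNNNGAA was in neither window and in 7.02% of all windows, and other spellings of IFN-γ response sites were not searched. These are matches of letters in short windows and were not tested as binding sites.

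Total counts ran from 23.2 to 29.9 M per library, a 1.29-fold range (M is mega, and CPM below is counts per M counts with TMM scaling). Macrophage genes were abundant in every library, with 1370 to 1780 CPM of the surface receptor gene Adgre1 and 3160 to 4060 CPM of the growth factor receptor gene Csf1r. Monocyte genes varied more between libraries, with Ly6c2 at 6.22 to 77.8 CPM and Ccr2 at 317 to 839 CPM. What part this monocyte difference had in the level of either chemokine was not tested. Ifngr1 averaged 237 CPM in wt/null and 92.5 CPM in null/null libraries, 39.1% of the wt/null level, with the highest null/null library at 118.7 and the lowest wt/null library at 226.2. Counts per gene do not show which part of the Ifngr1 transcript remained, so the absence of a working receptor is taken from the labels. On the first principal component (34.4% of variance) 2 anti-TNF libraries stood apart, wt/null anti-TNF replicate 2 at 54.2 and null/null anti-TNF replicate 1 at 45.9, while the other 10 lay between -20.8 and -3.47. The main results are given with and without these libraries.

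Cxcl9 was low in every library from null/null muscle and higher in every library from wt/null muscle. In wt/null isotype the level was 12.79, 39.81 and 20.85 CPM in replicates 1, 2 and 3, and in wt/null with anti-TNF it was 16.97, 118.3 and 9.163 CPM. The null/null isotype libraries held 3.499, 5.437 and 5.462 CPM, and the null/null anti-TNF libraries 4.281, 3.072 and 2.998 CPM. The genotypes did not overlap: the lowest wt/null library was 1.68 times the highest null/null library. Of all tested genes, 16 (0.123%) had all 6 null/null libraries below all 6 wt/null libraries, and 11 (0.0847%) had the opposite order. Leaving out the libraries that stand apart could not make Cxcl9 overlap, so that subset adds no further support. In it 49 genes (0.377%) had all null/null libraries below all wt/null libraries, a comparison chosen after the data were seen. Group medians were 20.85 CPM in wt/null with isotype, 16.97 in wt/null with anti-TNF, 5.437 in null/null with isotype and 3.072 in null/null with anti-TNF. In that order the isotype and anti-TNF groups of a genotype were neighbours, and they were separated neither in wt/null, where the ranges 12.79 to 39.81 and 9.163 to 118.3 overlapped, nor in null/null, where 3.499 to 5.462 overlapped 2.998 to 4.281.

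**Figure D1:**
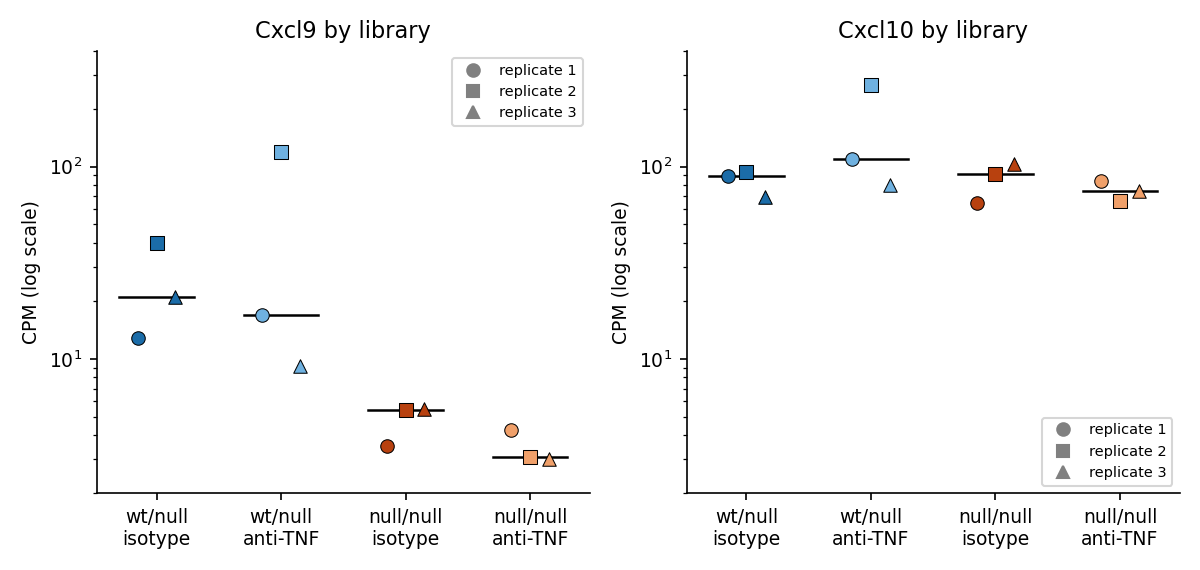
Cxcl9 (left) and Cxcl10 (right) in each library, in CPM on a log axis; points are libraries, marker shapes are replicates and black lines are group medians. All 6 null/null libraries lie at or below 5.462 CPM of Cxcl9, below the lowest wt/null library at 9.163, whereas the Cxcl10 points of the genotypes overlap, from 64.60 to 103.5 CPM in null/null and from 69.12 to 266.7 in wt/null.

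Cxcl9 was detected in every null/null library. Counts were 86, 141 and 158 in null/null with isotype and 113, 79 and 79 in null/null with anti-TNF, against 236 to 2889 in wt/null. As a share of the wt/null mean under the same antibody, null/null libraries kept 14.3% to 22.3% under isotype and 6.23% to 8.89% under anti-TNF. The anti-TNF shares fell low because wt/null anti-TNF replicate 2 raised the mean: against the wt/null median they were 17.7% to 25.2%, near the 16.8% to 26.2% under isotype.

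Cxcl10 did not separate the genotypes. Its level was 88.98, 93.69 and 69.12 CPM in wt/null with isotype and 64.60, 91.42 and 103.5 CPM in null/null with isotype. Those 2 groups covered nearly the same range, and the null/null mean was 103% of the wt/null mean. Under anti-TNF the wt/null libraries held 109.9, 266.7 and 80.60 CPM and the null/null libraries 84.18, 66.46 and 74.23 CPM. Here the null/null mean was 49.2% of the wt/null mean with all libraries and 73.8% without the 2 libraries that stand apart. The groups overlapped with all libraries, because null/null anti-TNF replicate 1 (84.18) lay above wt/null anti-TNF replicate 3 (80.60). In the 2 against 2 libraries that remained, the lowest wt/null library was 1.09 times the highest null/null library. With 2 libraries per group such an order says little, and its share over all tested genes was not computed. From highest to lowest the group medians were 109.9 CPM in wt/null with anti-TNF, 91.42 in null/null with isotype, 88.98 in wt/null with isotype and 74.23 in null/null with anti-TNF, and each group's range overlapped that of its neighbours in this order.

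In the edgeR fit over all genes, the estimate for null/null against wt/null averaged over the antibodies was a log2 fold change of -3.07 ± 0.62 for Cxcl9 (estimate ± SE, 95% interval -4.45 to -1.69, unadjusted p = 0.000573, adjusted p = 0.9996). That is an 8.41-fold lower level, the third smallest p and the second lowest estimate of all tested genes, yet it did not pass the correction over 12981 genes. For Cxcl10 the same estimate was -0.49 ± 0.27 (95% interval -1.08 to 0.10, edgeR unadjusted p = 0.0944), a 1.40-fold difference with an interval that held 0. In this comparison edgeR called 1 gene (0.0077%), which was Ifngr1, and 0 of the 2 chemokines, with 319 genes at an unadjusted p below 0.05. DESeq2 called Cxcl9 (-3.08, adjusted p = 0.00117) among 4 genes, and limma voom did not (-2.41, adjusted p = 0.942). Without the 2 libraries that stand apart the Cxcl9 estimate was -2.22 (edgeR adjusted p = 0.346) and the Cxcl10 estimate -0.20. Leaving out wt/null anti-TNF replicate 2 alone gave -2.13 for Cxcl9 and -0.15 for Cxcl10. In bulk RNA, fewer cells that make a chemokine and less chemokine RNA per cell cannot be told apart.

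Under isotype antibody alone the Cxcl9 estimate was -2.34 ± 0.86 (95% interval -4.25 to -0.44, edgeR unadjusted p = 0.0207) and all 3 null/null libraries lay below all 3 wt/null libraries, as they did for 3.65% of tested genes. The Cxcl10 estimate was 0.04 ± 0.37 (95% interval -0.79 to 0.88). With the isotype antibody, then, Cxcl9 had a 5.08-fold lower estimate in null/null, while the Cxcl10 interval held 0. Under anti-TNF the estimates were -3.80 ± 0.90 for Cxcl9 (95% interval -5.81 to -1.79) and -1.02 ± 0.38 for Cxcl10 (95% interval -1.86 to -0.18), with edgeR unadjusted p of 0.0018 and 0.0217. Neither passed the adjustment, in either setting; 1 gene (0.0077%) did under each antibody. Without the libraries that stand apart the anti-TNF estimates were -2.11 and -0.44. Complete separation of the 3 against 3 anti-TNF libraries was seen for Cxcl9 and for 2.58% of tested genes, and not for Cxcl10.

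**Figure D2:**
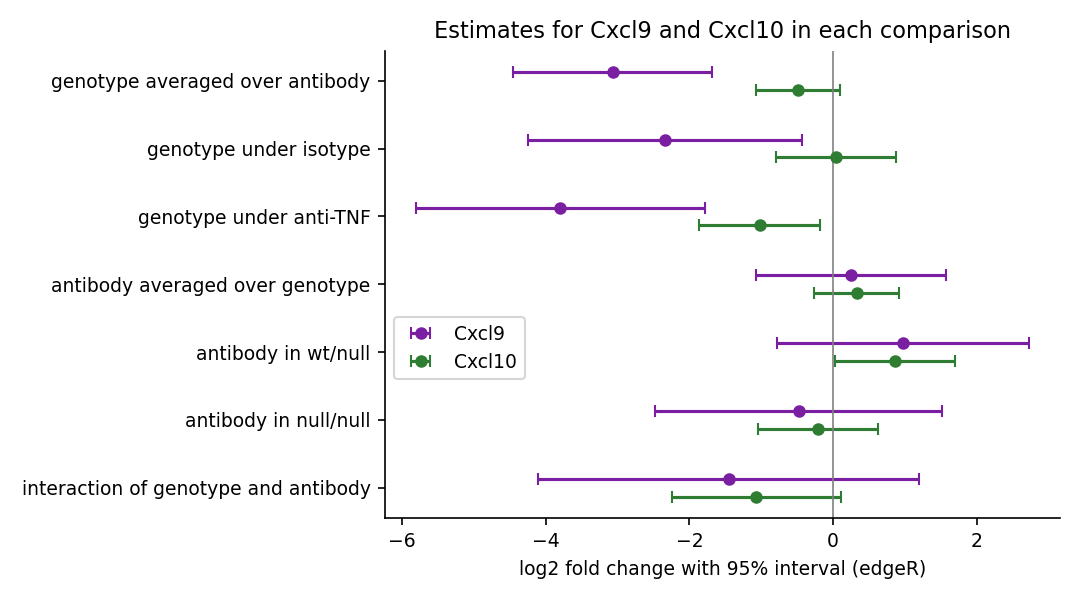
Log2 fold changes of Cxcl9 and Cxcl10 in each comparison, with 95% intervals derived from the edgeR test. The x axis is the log2 fold change and the vertical line marks 0. Genotype rows are null/null against wt/null and antibody rows anti-TNF against isotype; the Cxcl9 intervals lie below 0 in the 3 genotype rows, and the Cxcl10 interval does so under anti-TNF alone.

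The ratio of Cxcl9 to Cxcl10 within a library shows the difference between the chemokines without any scaling between libraries. Levels per kilobase used the union of annotated exons in GENCODE M21, 3.02 kb for Cxcl9 and 2.25 kb for Cxcl10. For Cxcl10 this union was 1 block as long as the gene body, so any intron is counted in it. The times given next may therefore be too low. Per kilobase, Cxcl10 exceeded Cxcl9 by 9.32, 3.15 and 4.44 times in wt/null with isotype. In wt/null with anti-TNF it exceeded Cxcl9 by 8.68, 3.02 and 11.8 times. In null/null isotype it exceeded Cxcl9 by 24.7, 22.5 and 25.4 times, and in null/null with anti-TNF by 26.3, 29.0 and 33.2 times. Cxcl10 RNA was thus the more abundant of the pair in all 12 libraries, and more so in each null/null library than in any wt/null library. Protein was not measured. The log2 ratio of Cxcl9 to Cxcl10 in CPM had a mean ± SD of -1.92 ± 0.796 under isotype and -2.33 ± 1.03 under anti-TNF in wt/null libraries (n = 3 each). In null/null libraries the values were -4.15 ± 0.0887 under isotype and -4.42 ± 0.162 under anti-TNF. The genotypes differed by -2.16 on the log2 scale, a 4.48-fold fall of Cxcl9 relative to Cxcl10, with an exact two-sided permutation of genotype within antibody giving p = 0.005, the smallest that 400 arrangements allow (0.01 after correction over 2 ratio tests). The pair was chosen with values of these libraries known, so this p is not independent evidence. Without the libraries that stand apart the difference was -1.91 (exact permutation p = 0.0167, the smallest possible there). Between antibodies the ratio differed by -0.34 (exact permutation p = 0.32).

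**Figure D3:**
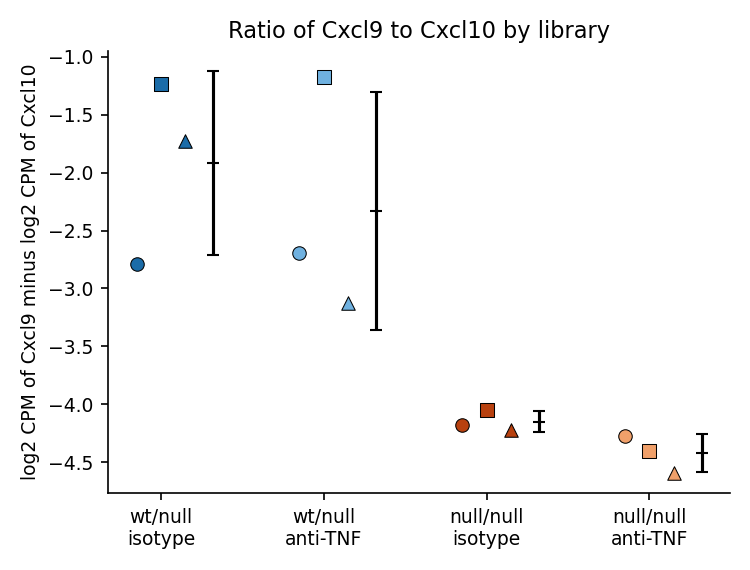
Log2 CPM of Cxcl9 minus log2 CPM of Cxcl10 in each library (points; marker shapes are replicates), with the group mean and SD beside them. The 6 null/null libraries lie between -4.60 and -4.05 and the 6 wt/null libraries between -3.13 and -1.17.

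The ratio also varied less among null/null libraries. Its 6 values there spanned -4.60 to -4.05, while the wt/null values spanned -3.13 to -1.17. Most of the wt/null spread was in Cxcl9, whose highest library exceeded its lowest by 3.11 times in wt/null with isotype and 12.9 times in wt/null with anti-TNF. In null/null the same range was 1.56 times under isotype and 1.43 times under anti-TNF. For Cxcl10 it was 1.36 and 3.31 times in wt/null, and 1.60 and 1.27 times in null/null, with isotype given first. These spreads are described and were not tested.

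Neutralizing TNF gave no change in either chemokine that passed the test. In wt/null mice the anti-TNF estimate was 0.98 ± 0.79 for Cxcl9 (95% interval -0.78 to 2.73) and 0.86 ± 0.38 for Cxcl10 (95% interval 0.02 to 1.70, edgeR unadjusted p = 0.0449, adjusted p = 0.895). Both rested on wt/null anti-TNF replicate 2: without it Cxcl9 was at -0.90 and Cxcl10 at 0.18. In null/null mice the estimates were -0.48 ± 0.90 for Cxcl9 (95% interval -2.47 to 1.52) and -0.21 ± 0.38 for Cxcl10 (95% interval -1.04 to 0.63). Averaged over genotype, Cxcl9 was at 0.25 ± 0.60 and Cxcl10 at 0.33 ± 0.27, and without the libraries that stand apart these became -0.78 and -0.06. edgeR called 0 genes (0%) in each of these antibody comparisons, with 949 genes at an unadjusted p below 0.05 in the averaged one, where DESeq2 called 14. The test of whether receptor loss acted differently under the antibodies gave -1.45 ± 1.19 for Cxcl9 (edgeR unadjusted p = 0.25) and -1.07 ± 0.53 for Cxcl10 (edgeR unadjusted p = 0.0716), with 0 genes (0%) called, 196 at an unadjusted p below 0.05 and 0 by DESeq2. Without wt/null anti-TNF replicate 2 the Cxcl9 value turned to 0.43 and the Cxcl10 value was -0.39 (edgeR unadjusted p = 0.184), and without both libraries that stand apart they were 0.24 and -0.48. The 2 genotype contrasts and the antibody contrasts share groups, so their estimates are not independent of each other.

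The ligand upstream of the receptor, Ifng, was scarce in these sorted cells, with 0 to 11 counts in 10 libraries. The libraries that stand apart held 71 counts (2.91 CPM, wt/null anti-TNF replicate 2) and 39 counts (1.48 CPM, null/null anti-TNF replicate 1). Both chemokines had their highest level in the wt/null library of this pair, 118.3 CPM of Cxcl9 and 266.7 CPM of Cxcl10. In the null/null library, which also held more Ifng than the other 10, Cxcl9 was at 4.281 CPM and Cxcl10 at 84.18 CPM. Both values were inside the ranges of the other null/null libraries over both antibodies. They were also the highest of their own group, whose other libraries held 3.072 and 2.998 CPM of Cxcl9 and 66.46 and 74.23 CPM of Cxcl10. With 1 such library per genotype, the comparison of this pair has no replicate.

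**Figure D4:**
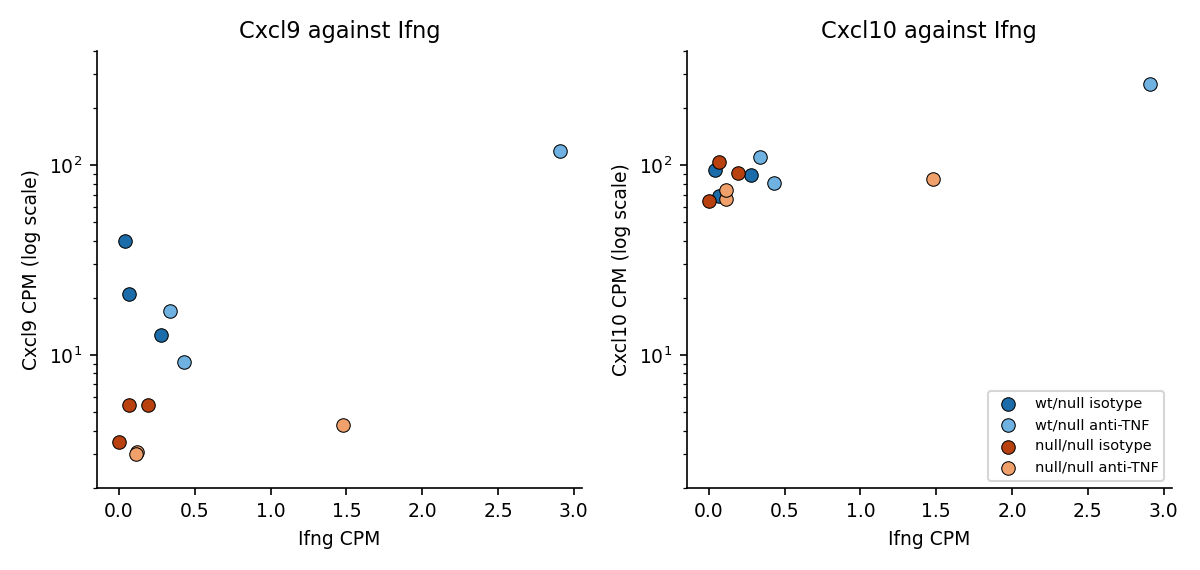
Cxcl9 (left) and Cxcl10 (right), in CPM on a log axis, against Ifng in CPM; points are libraries coloured by group. The wt/null library at 2.91 CPM of Ifng is the highest for both chemokines, and the null/null library at 1.48 CPM of Ifng has 4.281 CPM of Cxcl9 and 84.18 CPM of Cxcl10.

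Dendritic cell markers were highest in those same libraries. Summed over 7 dendritic cell markers, the level was 79.7 to 98.3 CPM in wt/null with isotype, 124 to 321 in wt/null with anti-TNF, 95.6 to 124 in null/null with isotype and 106 to 275 in null/null with anti-TNF. The libraries that stand apart held 87.28 and 89.29 CPM of Flt3, which encodes a receptor needed for dendritic cell development, and the others 20.44 to 32.07. The 10 T and NK cell markers summed to 121 to 136, 104 to 174, 98.4 to 202 and 128 to 153 CPM in the same group order, most of it Cd4, which monocytes and macrophages can also express. These sums did not follow the libraries that stand apart, which had 173.6 and 128.2 CPM, and the highest was 202.1 in null/null isotype replicate 2. Scarcer markers named here were highest in the libraries that stand apart, with wt/null anti-TNF replicate 2 given first. The T cell receptor component gene Cd3e had 17 and 19 counts there and 0 to 9 in the others. The cytotoxic granule gene Gzma had 128 and 48 against 0 to 12, and the NK receptor gene Ncr1 29 and 22 against 0 to 11. Cd3e, Gzma and Ncr1 had 1, 2 and 4 libraries at 0. The highest dendritic cell sums were in the libraries that stand apart, 321.2 CPM in the wt/null one with 118.3 CPM of Cxcl9 and 275.1 CPM in the null/null one with 4.281 CPM of Cxcl9. In the same libraries, wt/null first, the T and NK cell gene Cd8a was at 5.649 and 2.993 CPM, and in the other 10 it lay between 0.304 and 1.09 CPM. What part these cells had in the level of either chemokine was not tested.

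Endothelial and neutrophil markers, from cells that can make Cxcl9 or Cxcl10 or slip through the gate, gave no call for genotype. The 5 endothelial markers had lower estimates in null/null in 5 of 5 (median -0.23, against 0.000233 over all tested genes, and 1 at an edgeR unadjusted p below 0.05) with summed levels of 20.5 to 30.7 CPM in null/null with isotype and 24.2 to 39.5 in wt/null with isotype. Under anti-TNF the sums were 26.2 to 46.8 CPM in null/null and 30.4 to 50.9 in wt/null, each highest in the library that stands apart. The 6 neutrophil markers summed to at most 5.683 CPM in every group except null/null isotype, where the highest library had 33.2. Of these 6 only 3 were tested, and averaged over antibody all 3 had higher estimates in null/null (median 0.999). Under isotype 2 were higher and 1 lower (median 1.73, 1 at an edgeR unadjusted p below 0.05). Under anti-TNF 2 were higher and 1 lower (median 0.27). The 3 B cell markers summed to at most 0.797 CPM and were all below the filter, so they were not tested. The 4 fibroblast markers had their lowest sums in the libraries that stand apart, 159.6 CPM in wt/null and 96.68 CPM in null/null, against 241.2 to 624.7 in the other 10. The 4 muscle markers summed to 45.9 to 88.8 CPM, and edgeR called no fibroblast or muscle marker for genotype. Their part in the chemokine levels was not tested.

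The third ligand of the receptor, Cxcl11, is annotated as a transcribed pseudogene in the C57BL/6J reference and was scarce. It had 14, 18 and 23 counts in wt/null with isotype, 15, 53 and 4 in wt/null with anti-TNF, 10, 11 and 17 in null/null with isotype and 6, 14 and 15 in null/null with anti-TNF. Its estimate for genotype was -0.83 ± 0.50 with all libraries and 0.03 without those that stand apart. Cxcr3, the receptor that both chemokines engage, was measured at 6.06 to 18.2 CPM and differed by -0.19 ± 0.18 between genotypes. Dpp4, a protease that trims CXCR3 ligands, was at -0.14 ± 0.40, and the scavenging receptor gene Ackr3, whose product binds CXCL11, at -0.27 ± 0.43. All 6 genes of this axis had estimates below 0 (median -0.38, against 0.000233 over all genes). Without the libraries that stand apart 5 of 6 did (median -0.18), and 0 were called in either fit.

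Upstream of the chemokines, of 12 tested genes of IFN-γ signalling 9 had lower and 3 higher estimates in null/null (median -0.13), with Ifngr1 the 1 called. Without the libraries that stand apart 11 were tested, 8 lower and 3 higher, with a median of -0.02. Irf1, an interferon-induced transcription factor gene, held 110.3, 136.0 and 131.7 CPM in wt/null with isotype and 76.89, 124.2 and 103.8 in null/null with isotype. Under anti-TNF it held 137.6, 359.4 and 136.2 CPM in wt/null and 151.0, 107.8 and 108.8 in null/null, so the genotypes overlapped and the highest value was in wt/null anti-TNF replicate 2. Its estimate was -0.55 ± 0.25 (edgeR unadjusted p = 0.0521, adjusted p = 0.9996), and -0.32 without the libraries that stand apart. The feedback inhibitor gene Socs3 had a higher estimate, 0.47 ± 0.23, and Ciita, the regulator of MHC class II genes, a lower one, -0.30 ± 0.19. The co-receptor Ifngr2 (0.04 ± 0.06) and the kinases Jak1 (0.02 ± 0.07) and Jak2 (-0.04 ± 0.16) had estimates near 0.

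The other routes to Cxcl10 showed no call for genotype. Among 9 tested genes of type I interferon signalling 7 had lower and 2 higher estimates (median -0.09, and -0.06 with 6 lower and 3 higher without the libraries that stand apart), with Stat2 at -0.22 ± 0.20, Irf9 at -0.19 ± 0.14, Irf3 at 0.12 ± 0.07 and the receptor chain Ifnar1 at 0.07 ± 0.07. Ifnb1, the interferon beta gene, had 0 to 15 counts and was below the filter. Among 13 genes of TNF and NF-κB signalling 4 had lower and 9 higher estimates (median 0.05, and 0.09 with 3 lower and 10 higher without those libraries). The NF-κB subunit gene Nfkb2 was at 0.19 ± 0.05 (edgeR unadjusted p = 0.00347, adjusted p = 0.9996), Rela at 0.08 ± 0.06, Relb at 0.10 ± 0.12 and the TNF receptor gene Tnfrsf1a at 0.05 ± 0.06. Tnf itself was at -0.13 ± 0.34 with all libraries and turned to 0.28 without those that stand apart, with its highest level, 105.0 CPM, in wt/null anti-TNF replicate 2 and 20.74 to 42.09 CPM in the others.

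The other CXC chemokines differed in sign from Cxcl9: all 9 that were tested had higher estimates in null/null (median 0.35 against 0.000233 over all genes, and 0.25 without the libraries that stand apart), with 0 called. Ppbp, a platelet chemokine, was at 0.76 ± 0.32 and the neutrophil attractant Cxcl3 at 0.93 ± 0.45 (0.59 without those libraries). Both were scarce, with 12 to 97 counts of Ppbp and 6 to 57 of Cxcl3. Cxcl1 was at 0.39 ± 0.32, and Pf4, the platelet factor that macrophages also express, at 0.30 ± 0.19. Cxcl16, at 657 to 875 CPM, had an estimate of 0.03 ± 0.08. Cxcl5 had 0 to 3 counts and was not tested.

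Of the genes that start within 1 Mb of the Cxcl10 start site, 17 were tested. The 15 others, Cxcl11 included, ranged from -0.83 (Cxcl11) to 0.22 (Thap6) for genotype, with 12 below 0. Their median was -0.10, against 0.000233 over all tested genes (quartiles -0.07 and 0.07). None of the 15 was called, and 1, the cyclin gene Ccni (-0.15 ± 0.06), had an edgeR unadjusted p below 0.05. Art3, an ADP-ribosyltransferase gene whose body overlaps Cxcl10 and Cxcl11, was at -0.50 ± 0.50. The next genes outward, Sdad1 and Nup54, were at -0.06 ± 0.09 and -0.07 ± 0.09.

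**Figure D5:**
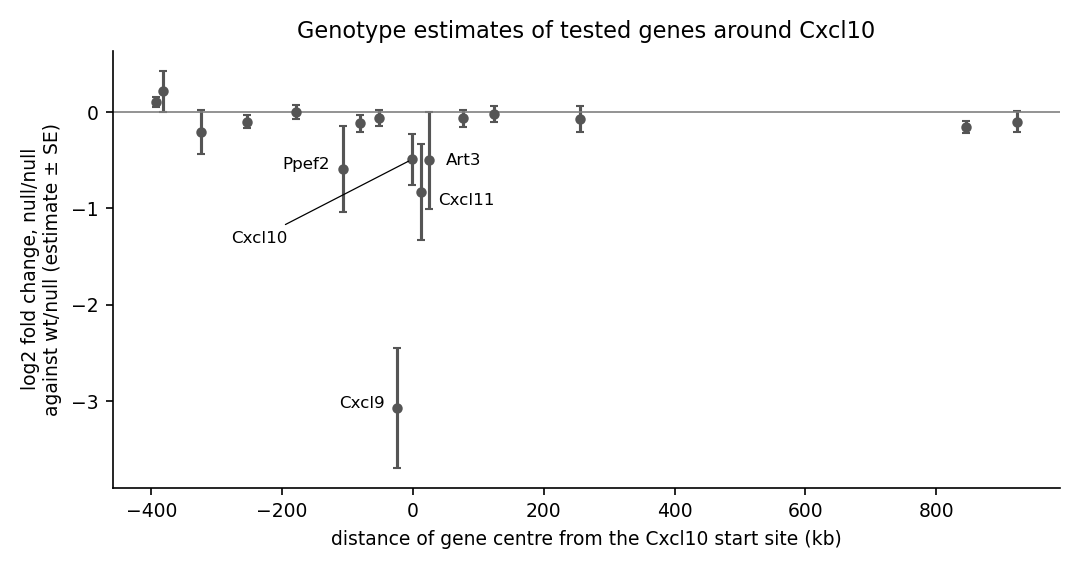
Genotype estimates (log2 fold change, null/null against wt/null averaged over antibody; bars are ± SE) of the 17 tested genes around Cxcl10, against the distance of each gene's centre from the Cxcl10 start site in kb. Cxcl9 lies at -3.07, and the other 16 between -0.83 and 0.22.

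The genes most like each chemokine across libraries were named by correlation. The 10 genes whose log2 CPM followed Cxcl9 most closely over 12 libraries (Pearson r 0.888 to 0.961) were Serpina3f, Gbp2, Iigp1, Gbp2b, Myh10, Gbp6, Serpina3g, Tgtp2, Gbp4 and Klhdc1. Of these, the Gbp genes, Iigp1 and Tgtp2 are GTPases of defence against intracellular microbes. They belong to families with near-identical copies, so the share of reads assigned to each copy is uncertain. The 10 genes most like Cxcl10 (Pearson r 0.912 to 0.961) were Psme1, Psme2, Gm12185, Tapbpl, Dnase1l3, Misp, Sp140, Fam192a, Sp110 and Pafah1b3, where Psme1 and Psme2 encode the proteasome activator PA28. The lists shared 0 genes, though each was cut at 10 and its genes also correlated with the other chemokine. The Cxcl9 list had Pearson r of 0.675 to 0.895 with Cxcl10, and the Cxcl10 list 0.648 to 0.845 with Cxcl9. The chemokines themselves correlated at r = 0.754 over 12 libraries, which placed Cxcl10 at rank 76 among 12980 genes for likeness to Cxcl9, and at r = 0.444 over the 10 libraries without those that stand apart. Of the Cxcl9 list, 6 genes (Gbp2, Gbp2b, Gbp6, Iigp1, Serpina3f and Serpina3g) were again among the closest 10 over those 10 libraries, where Ifngr1 itself entered at r = 0.867. Of the Cxcl10 list 2 were, Psme1 and Sp110. All these libraries share the same groups and the same library that is high for both chemokines, and the coefficients are descriptions.

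Library titles start with 40 or 46, a number whose meaning is not given, and each group holds 1 library titled 46. Among those titled 46, Cxcl9 was at 20.85 CPM in wt/null and 5.437 in null/null under isotype, and at 9.163 and 2.998 under anti-TNF. Cxcl10 was at 69.12 and 91.42 CPM under isotype and at 80.60 and 74.23 under anti-TNF in the same order. Among the libraries titled 40 alone, the estimate averaged over antibody was -3.37 for Cxcl9 and -0.72 for Cxcl10. Both libraries that stand apart are titled 40 and so weigh more in this subset. Without them, and with both title numbers, the estimates were -2.22 and -0.20. Cxcl9 was lower in null/null within both title numbers, which follows from its lack of overlap over all libraries.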

How the data were processed

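Messenger RNA of 12 libraries was analysed, 3 in each group of genotype and antibody. The values deposited by the authors are counts per gene symbol, not normalized, as the whole numbers show. Per the labels' protocols, libraries were made with a stranded mRNA kit and sequenced in pairs. Per the submitters' processing notes, bcl2fastq 2.20, STAR, Bowtie and build mm10 were used, with no roles given. The counting tool, annotation and strand setting are not given in the sources used here. Art3 overlaps Cxcl10, so without a known strand setting their reads might not be fully separated.

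Columns were matched to samples by title, with 0 unmatched. filterByExpr kept 12981 of 24421 symbols, holding at least 99.97% of each library's counts. TMM scaling and the robust quasi-likelihood test of edgeR 4.0.16 (R 4.3.3) were used on 1 mean per group, with Benjamini-Hochberg adjustment over all genes and a threshold of 0.05. edgeR gives no SE for this test, so it was derived as the absolute log2 fold change over the square root of the F value. The 95% intervals used this SE and the t distribution with the total degrees of freedom of the test. The biological coefficient of variation was 0.179. The code was tested on simulated data. The log2 CPM used a prior count of 2. Permutations were exact and two-sided. Coordinates and promoters came from RefSeq (GRCm38.p6), where 95.0% of symbols were found. Lengths were the union of all annotated exons of a gene in GENCODE M21.

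Alternatives were DESeq2 1.42.0, limma 3.58.1 voom with sample weights, relative log expression scaling, other filters (a total of at least 1 count, or 1 CPM in 3 libraries), the title number as a block, subsets of libraries, a prior count of 0.5 and Spearman correlation. The members, lists and tests were chosen with earlier results of these data known. Named genes were the chemokines, their receptor and Cxcl11, the IFN-γ and TNF genes, up to 4 members per list by smallest p, the 10 most alike genes, neighbours within 1 Mb, and cell markers. Ackr3, Dpp4, Ciita, Jak1, Jak2, Ifngr2, Cxcl16, Cxcl5 and Ifnb1 were chosen after their values were seen. 1 gene of the IFN-γ list is counted but not reported here by name.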

Additional observations from a re-analysis of the deposited data

How the results depend on the processing

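Cxcl9 kept its lower genotype estimate under every alternative run (20 averaged over antibody, 21 under each antibody), from -3.37 to -2.13 averaged over antibody, with adjusted p between 0.00117 and 0.99996. DESeq2 alone called it, at -3.08 averaged over antibody and -3.80 under anti-TNF (adjusted p = 0.0337). Cxcl10 stayed below 0 averaged over antibody (-0.72 to -0.15) and was called in no alternative of any comparison. Under isotype it was at -0.12 in libraries titled 40 and from -0.11 to 0.21 with each library left out.

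Antibody estimates followed wt/null anti-TNF replicate 2. Averaged over genotype, leaving out each library gave -0.69 to 0.52 for Cxcl9 and -0.0119 to 0.48 for Cxcl10, and leaving out both libraries that stand apart gave -0.78 and -0.0576. In wt/null, Cxcl9 ranged from -0.90 to 1.51 with each library left out and was at -0.90 without both. Its interaction ranged from -1.98 to 0.43, and was 0.24 without both, while that of Cxcl10 stayed between -1.37 and -0.39. With limma voom, Cxcl9 was at -0.40 averaged over genotype and -0.12 in wt/null. The cause was not tested.

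The ratio of Cxcl9 to Cxcl10 between genotypes stayed between -2.38 and -1.87. In libraries titled 40 it was -2.30 with exact permutation p = 0.0556, the smallest that 36 arrangements allow.

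DESeq2 called 4 genes for genotype averaged, 2 under isotype, 2 under anti-TNF and 14 for antibody averaged, against 1, 1, 1 and 0 in edgeR. Libraries titled 40 gave 0 under isotype, 0 under anti-TNF and 1 for antibody averaged. Fits of only the groups compared gave 0 under anti-TNF and 1 for antibody in null/null. The title number as a replicate block, which pairs no mice by its labels, gave -2.97 for Cxcl9 and -0.45 for Cxcl10 averaged over antibody and changed no call. Spearman in place of Pearson kept 7 of the 10 genes most like Cxcl9 and 0 of those most like Cxcl10. Cxcl11, Ifng and Cd3e had too few counts to rank groups, and counting error was not separated from the spread between libraries.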
